A study of Mus musculus with 30 samples.

Results

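The coenzyme Q genes are the 10 genes Coq2, Coq3, Coq4, Coq5, Coq6, Coq7, Coq8a, Coq9, Coq10a and Coq10b, matched by symbol among 51826 gene identifiers. The set was chosen by a readout: it was picked because the difference between irradiated and control livers in Coq10b was not the same at every month. All 10 genes passed the filter on low counts, so none is missing from what follows. Gene expression was measured by RNA sequencing in 30 livers of male mice whose strain label reads C57BL16. Of these, 15 had been exposed to 56Fe, a heavy and densely ionising component of space radiation (dose 0.2 Gy, energy 600 MeV/n), and 15 non-irradiated controls were collected at the same times. Livers were taken at 1, 2, 4, 9 or 12 months (30, 60, 120, 270 or 360 days), with 3 biological replicates for each treatment and time. The RNA came from 40-micron frozen slices of the left lobe, was depleted of ribosomal RNA and was read as 50-base pairs. The age at irradiation is not given in the sources used here.

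Coenzyme Q, or ubiquinone, is a lipid of the inner mitochondrial membrane that carries electrons from complexes I and II and several other dehydrogenases to complex III. Its reduced form is also a membrane antioxidant. Its ring derives from tyrosine and its long tail from the mevalonate pathway, and after COQ2 has joined them the ring is modified by a group of COQ proteins on the matrix side of that membrane. COQ10 proteins do not make coenzyme Q but bind it, and the yeast homologue is needed for the lipid to work in respiration. The mouse genome holds Coq10a and Coq10b as separate genes of this kind.

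In GRCm38, Coq10b (ENSMUSG00000025981) spans chr1:55052770-55072702 on the plus strand and Coq10a (ENSMUSG00000039914) spans chr10:128363100-128368997 on the minus strand. The stretches just upstream of their start sites, from RefSeq (GRCm38.p6), are shown because Coq10b is the gene whose values chose the set and Coq10a is its paralogue. They are chr1:55052520-55052769 on the plus strand for Coq10b and chr10:128368981-128369230 on the minus strand for Coq10a. Each is written 5′ to 3′ in the direction of its gene, and capitals mark CACGTG (the E-box bound by CLOCK and ARNTL proteins among others), CCAAT and TGACG (the core of a cAMP response element), each on either strand.
Coq10b: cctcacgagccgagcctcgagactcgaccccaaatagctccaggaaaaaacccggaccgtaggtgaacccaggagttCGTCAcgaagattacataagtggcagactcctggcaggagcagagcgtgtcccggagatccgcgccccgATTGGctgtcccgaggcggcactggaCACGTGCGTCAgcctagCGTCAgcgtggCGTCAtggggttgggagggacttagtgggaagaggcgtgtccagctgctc
Coq10a: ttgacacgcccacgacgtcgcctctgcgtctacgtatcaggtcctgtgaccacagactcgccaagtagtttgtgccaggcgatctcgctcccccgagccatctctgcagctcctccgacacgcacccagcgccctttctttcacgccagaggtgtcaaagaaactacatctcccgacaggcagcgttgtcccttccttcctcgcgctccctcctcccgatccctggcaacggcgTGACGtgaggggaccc
Counted with a further 50 bases past the start site, the Coq10b window held 1 CACGTG, beginning 78 bases before the start, 2 CCAAT and 4 TGACG. The last of these motifs was searched after the sequence had been seen, and the others were chosen with earlier results known. Among 32851 RefSeq windows of this length, 7.15% held CACGTG, 11.7% held at least 2 CCAAT and 1.03% held at least 3 TGACG. The Coq10a window held 1 TGACG, and none of CACGTG or CCAAT. Windows matched 9 of the 10 members by symbol. A Coq5 window is not used here, and among the windows of the other members only that of Coq4 also held CACGTG. Neither arrangement of the heat shock element searched (GAANNTTC and TTCNNGAA) was among the letters of any member's window. These matches describe the letters only.

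Coq10b was lower in 56Fe livers than in control livers at months 1, 2 and 4, with no overlap between the groups, and higher in 56Fe livers at month 9. At month 1 it stood at 7.37, 10.4 and 11.4 CPM (counts per 1000000 counts of the library, scaled between libraries by the TMM method) in 56Fe livers, against 54.7, 45.9 and 38.2 CPM in control livers. Every 56Fe liver was therefore below every control liver, and the 2 groups were further apart than at any later month. At month 2 the values were 15.6, 13.9 and 20.1 CPM in 56Fe livers and 21.4, 31.9 and 27.2 CPM in control livers, so the groups lay close together without overlapping. At month 4 they were 12.4, 18.5 and 24.8 CPM in 56Fe livers and 37.3, 34.0 and 37.4 CPM in control livers, again apart. At month 9 the order was turned round, with 42.0, 27.0 and 30.6 CPM in 56Fe livers and 26.1, 25.8 and 17.6 CPM in control livers. At month 12 the groups overlapped, at 37.3, 31.2 and 33.6 CPM in 56Fe livers and 33.4, 29.1 and 25.8 CPM in control livers. In these bulk samples, fewer cells of a type and less RNA per cell cannot be told apart.

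**Figure D1:**
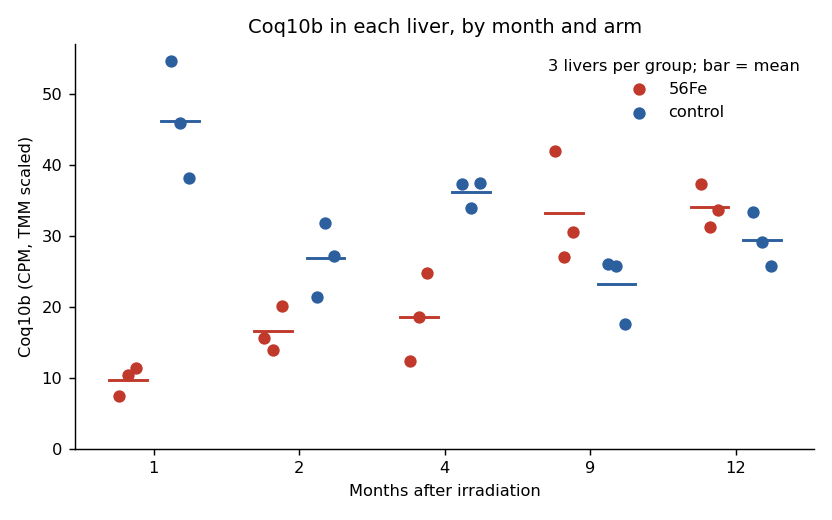
Coq10b level (CPM) in each liver, with 56Fe livers left of control livers at each month after irradiation; points are livers and bars are group means (n = 3). The 56Fe livers lie below the control livers at months 1, 2 and 4, above them at month 9 and among them at month 12.

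On the log2 scale, the 56Fe minus control difference in Coq10b began at -2.25 ± 0.23 (SE) at month 1. It was -0.70 ± 0.22 and -0.96 ± 0.22 at the next 2 times, then 0.52 ± 0.21 at month 9 and 0.21 ± 0.21 at the last. These differences chose the set and are given as a description, without a test. Group means and SDs (n = 3) were 9.71 ± 2.09 CPM in 56Fe livers and 46.2 ± 8.25 CPM in control livers at month 1, and 33.2 ± 7.82 CPM in 56Fe livers and 23.2 ± 4.80 CPM in control livers at month 9. Over the 5 times the 56Fe means of Coq10b ran between 9.71 CPM at month 1 and 34.0 CPM at month 12, a 3.51-fold span, and were higher at each later month up to the last. The control means had no such order and spanned 2.00-fold, between 23.2 CPM at month 9 and 46.2 CPM at month 1. When the 10 group means were ranked, only the lowest (56Fe, month 1) and the highest (control, month 1) had livers that did not overlap with those of the neighbouring group.

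Leaving out each of the 30 livers in turn kept the sign of every Coq10b difference, which ran between -2.38 and -2.04 at month 1 and between 0.33 and 0.64 at month 9. Averaged over months 1 and 2, Coq10b differed by -1.48 ± 0.16, and averaged over months 4, 9 and 12 by -0.08 ± 0.12, where the month 4 and month 9 differences have opposite signs. The read support was 83 to 820 counts per liver.

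The livers also differed in library make-up. The deposited tables held 7995248 to 20215995 counts per liver, and a single non-coding RNA, Gm26917, took 3.04% to 7.57% of them at months 1 and 2 but 0.452% to 2.04% at months 4, 9 and 12. At month 1 its share was 6.77% ± 0.693 in 56Fe livers and 4.10% ± 1.72 in control livers (SD, n = 3). The arms did not overlap at that month, nor at month 2, at 5.65% ± 1.13 in 56Fe livers and 4.03% ± 0.719 in control livers. They were also apart at month 4, at 0.915% ± 0.0807 in 56Fe livers and 0.490% ± 0.0196 in control livers, and at month 12, at 0.870% ± 0.150 in 56Fe livers and 1.65% ± 0.360 in control livers, and overlapped at month 9. Malat1, a nuclear non-coding RNA, was also higher in 56Fe livers at month 2, at 7943 to 9750 CPM, against 4533 to 5764 CPM in control livers (edgeR, adjusted p = 0.0245). Its arms were apart in the same direction at month 1, at 7960 to 8891 CPM in 56Fe livers and 5245 to 6791 CPM in control livers. At month 9 the ranges were 3114 to 4745 CPM in 56Fe livers and 2306 to 2500 CPM in control livers, and at months 4 and 12 they overlapped. The mean Malat1 difference over the 5 times was log2 0.36 (edgeR, adjusted p = 0.012). The part of these RNAs in the Coq10b values was examined only through the level of Gm26917. With its log2 CPM as a covariate, the Coq10b differences became -1.98, -0.56, -0.67, 0.58 and -0.16 in order of time, so the month 12 value turned its sign. Sums of marker genes are given in CPM of the library total, without the TMM scaling used for single genes. The hepatocyte markers, all 6 tested and none at 0 in any group, summed to 50200 to 69810 CPM in 56Fe livers and 65760 to 72970 CPM in control livers at month 1. The summed cholangiocyte markers (4 of 4 tested, none at 0 in a group) were 10.5 to 14.9 CPM in 56Fe livers and 4.13 to 5.87 CPM in control livers at that month, without overlap. At month 2 their order was reversed, at 7.82 to 9.14 CPM in 56Fe livers and 10.2 to 13.5 CPM in control livers. At month 9 they were again higher in 56Fe livers, at 6.21 to 10.1 CPM against 5.01 to 6.08 CPM in control livers. Over all 30 livers the summed Kupffer cell (132 to 658 CPM), sinusoidal endothelial (197 to 374 CPM), stellate cell (218 to 450 CPM), lymphocyte (1.27 to 8.13 CPM) and neutrophil (0.658 to 40.9 CPM) markers were all far below those of hepatocytes. Some of these sums did not overlap between the arms: lymphocyte markers were at 3.69 to 4.78 CPM in 56Fe livers and 4.91 to 8.13 CPM in control livers at month 1, and at 3.44 to 4.48 CPM in 56Fe livers and 2.27 to 2.85 CPM in control livers at month 2. Sinusoidal markers at month 2 were at 291 to 302 CPM in 56Fe livers and 231 to 252 CPM in control livers. Neutrophil markers at month 2 were at 0.658 to 1.03 CPM in 56Fe livers and 1.57 to 34.6 CPM in control livers. The sinusoidal order was reversed at month 9, at 211 to 281 CPM in 56Fe livers and 296 to 342 CPM in control livers. Stellate markers at month 9 were at 282 to 352 CPM in 56Fe livers and 381 to 450 CPM in control livers. The part of the marker genes in the Coq10b differences was not tested.

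The paralogue Coq10a did not follow Coq10b. Its lowest, median and highest levels over all 30 livers were 12.0, 16.3 and 22.8 CPM, a 1.90-fold span, while those of Coq10b were 7.37, 27.1 and 54.7 CPM, a 7.42-fold span. At month 1, Coq10a stood at 15.7, 16.4 and 14.4 CPM in 56Fe livers and 16.1, 15.6 and 17.8 CPM in control livers, overlapping throughout. At month 9 it stood at 12.0, 16.6 and 12.0 CPM in 56Fe livers and 19.1, 22.6 and 22.8 CPM in control livers, with every 56Fe liver below every control liver. There Coq10a fell in 56Fe livers by 0.66 ± 0.16 (SE) on the log2 scale (edgeR quasi-likelihood test, Benjamini-Hochberg adjusted p = 0.0267), the month at which Coq10b was higher. That call was lost without a low count filter (adjusted p = 0.081), with the month's 6 libraries alone (0.292) and without any 1 of 7 livers, namely the 3 control livers and 56Fe replicates 1 and 3 of month 9 and 56Fe replicate 2 of months 1 and 2 (adjusted p between 0.0504 and 0.256). At months 1, 2, 4 and 12 the Coq10a differences lay between -0.09 and 0.14, each within its SE of 0.15 to 0.16.

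Among the 9 members other than Coq10b, edgeR called 1 at month 9 (Coq10a) and 0 at each of the other 4 times. Over all 19685 genes tested it called 4.6%, 4.37%, 3.6%, 1.66% and 0.0% at months 1, 2, 4, 9 and 12 in turn. Among the 9 members, 2 had an unadjusted p under 0.05 at month 1 (Coq8a and Coq2), 2 at month 2 (Coq2 and Coq9), 2 at month 4 (Coq3 and Coq5) and 1 at month 12 (Coq3). Of all 19685 genes, 3317, 4260, 3759 and 2648 had such a p at these months in turn. DESeq2 called 1 of the 9 at month 1 (Coq8a) and limma voom 2 (Coq8a and Coq2), and neither called any at months 2, 4 or 12. Over all genes at month 1, DESeq2 called 1217 of the 12052 it gave an adjusted p, and limma voom 2047 of 19685. At month 12 no gene at all was called by edgeR although 2648 had an unadjusted p under 0.05, and DESeq2 called 163 genes and limma voom 1. The 56Fe difference varied between months in 0 of the 9 members (edgeR, adjusted p = 0.06 for Coq10a and 0.0819 for Coq3, the smallest and both under 0.05 unadjusted), against 11% of all genes. DESeq2 called both of them and limma voom Coq10a. Over all genes DESeq2 called 3857 of 14719 and limma voom 4475 of 19685, and 5808 had an unadjusted p under 0.05 in edgeR. The mean 56Fe difference over the 5 times was called for 0 of the 9 members, against 5.26% of all genes, and that of Coq10b, which the choice of the set used, was not tested. Of the 9, Coq2, Coq5 and Coq9 had an unadjusted p under 0.05, and limma voom called these 3 while DESeq2 called none. Over all genes 4348 had such a p in edgeR, and limma voom called 2732 of 19685 and DESeq2 1508 of 14719. The log2 size of the mean difference in the 9 lay between -0.20 for Coq4 and 0.13 for Coq8a. Averaged over months 1 and 2, edgeR called 1 of the 9 (Coq2), against 10.4% of all genes. DESeq2 called 1 of the 9, against 2347 of 16246 genes, and limma voom 4, against 4518 of 19685. In edgeR 5 of the 9 had an unadjusted p under 0.05, as did 4896 of all genes. Over months 4, 9 and 12 edgeR called none of the 9, against 0.0203% of all genes. None of the 9 had an unadjusted p under 0.05 there in edgeR, against 2055 of all genes. Each of these counts rests on 9 genes and is read no further than beside these shares.

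**Figure D2:**
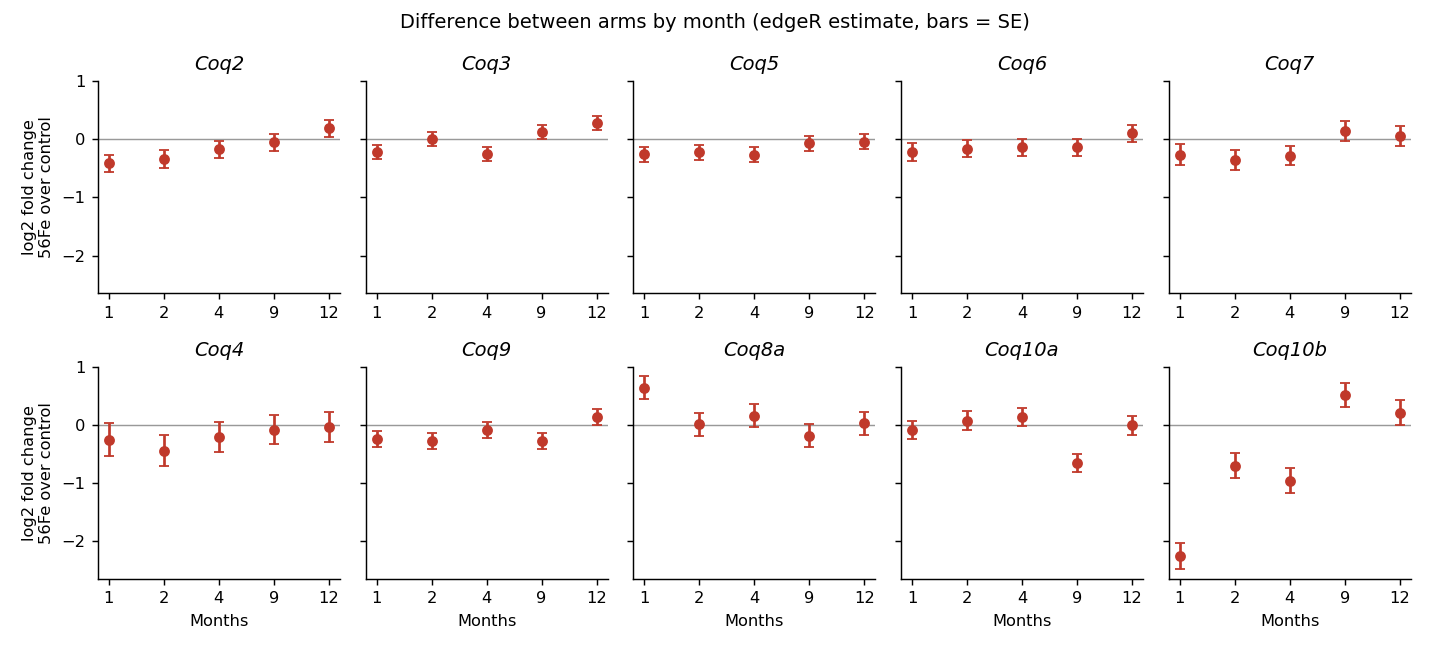
The 56Fe minus control difference (log2, with SE) of each coenzyme Q gene at months 1, 2, 4, 9 and 12 (n = 3 livers per group). Coq10b lies at -2.25 at month 1 and 0.52 at month 9, while the other 9 members lie between -0.66 and 0.64 at every month.

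Coq2, which encodes the polyprenyltransferase that attaches the isoprenoid tail to the ring precursor, was the 1 gene of the 9 tested that edgeR called over months 1 and 2. At month 1 it stood at 16.4, 16.3 and 19.0 CPM in 56Fe livers, against 24.1, 24.98 and 19.7 CPM in control livers. At month 2 it stood at 19.2, 19.0 and 17.7 CPM in 56Fe livers, against 23.4, 26.1 and 21.4 CPM in control livers. At both months each 56Fe liver was below each control liver. Neither month was called alone (log2 -0.42 ± 0.15, adjusted p = 0.126 at month 1 and -0.34 ± 0.15, adjusted p = 0.182 at month 2). Averaged over both, Coq2 fell by 0.38 ± 0.11 on the log2 scale (edgeR, adjusted p = 0.0223). At month 9 its difference was -0.05 ± 0.15 and at month 12 it was 0.19 ± 0.15, with overlapping groups.

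The ring is then modified by methyltransferases and hydroxylases. Coq3 encodes the O-methyltransferase, and its differences had opposite signs at different months. At month 4 it stood at 23.8, 22.3 and 24.2 CPM in 56Fe livers and 24.8, 29.4 and 29.8 CPM in control livers, all 56Fe livers being lower. At month 9 it stood at 27.6, 24.4 and 24.03 CPM in 56Fe livers and 23.6, 22.8 and 23.4 CPM in control livers, and at month 12 at 21.8, 20.9 and 24.1 CPM in 56Fe livers and 19.2, 16.2 and 19.5 CPM in control livers. At these later months all 56Fe livers were higher, though by log2 0.12 ± 0.12 and 0.28 ± 0.12 only, and none of the 3 months was called.

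Coq5 encodes the C-methyltransferase. It stood at 21.7, 24.1 and 22.7 CPM in 56Fe livers and 28.8, 26.1 and 24.9 CPM in control livers at month 2, and at 31.3, 35.2 and 36.0 CPM in 56Fe livers and 37.5, 43.0 and 42.8 CPM in control livers at month 4. The groups did not overlap at either month. Its mean difference over the 5 times, -0.17 ± 0.06 on the log2 scale, had the smallest adjusted p of the 9 members (0.0726), above the threshold of 0.05.

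The hydroxylases Coq6, a flavin monooxygenase, and Coq7, a di-iron enzyme, were measured at lower levels. Coq6 at month 1 stood at 9.14, 10.01 and 9.93 CPM in 56Fe livers, against 10.9, 11.7 and 11.3 CPM in control livers, without overlap but by only -0.22 ± 0.15 (adjusted p = 0.526). Coq7 at month 2 stood at 9.54, 11.4 and 8.49 CPM in 56Fe livers, against 12.5, 12.4 and 12.8 CPM in control livers. Its 56Fe livers were again all lower, by -0.35 ± 0.18 (adjusted p = 0.242). At month 9, 1 of the 56Fe livers held the highest Coq7 level of all 30 livers, 34.5 CPM, beside 23.1 and 18.4 CPM in the other 56Fe livers and 22.2, 23.0 and 23.3 CPM in control livers.

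Coq4, Coq9 and Coq8a encode the supporting members of the enzyme assembly. Coq4, which is needed to hold the yeast assembly together, had the fewest counts, 18 to 118 per liver, and its groups overlapped at every month. Coq9, a lipid-binding partner of COQ7, stood at 61.0, 56.5 and 60.1 CPM in 56Fe livers and 78.4, 67.0 and 70.8 CPM in control livers at month 2. At month 9 it stood at 115, 121 and 92.1 CPM in 56Fe livers and 127, 136 and 134 CPM in control livers. All 56Fe livers were lower at both of these months, by -0.28 ± 0.14 (adjusted p = 0.225) and -0.27 ± 0.14 (adjusted p = 0.327).

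Coq8a, an atypical kinase-like ATPase of the pathway, was the 1 member of the 9 with a higher mean over months 1 and 2 in 56Fe livers, and that difference was not called. At month 1 it stood at 210, 281 and 155 CPM in 56Fe livers and 144, 162 and 109 CPM in control livers, so that the lowest 56Fe liver fell among the control livers. Its log2 difference was 0.64 ± 0.20 (edgeR, adjusted p = 0.062), the largest of the 9 members at that month, and DESeq2 and limma voom called it. At month 2 it was 0.01 ± 0.20, with 304, 303 and 253 CPM in 56Fe livers and 332, 249 and 270 CPM in control livers.

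**Figure D3:**
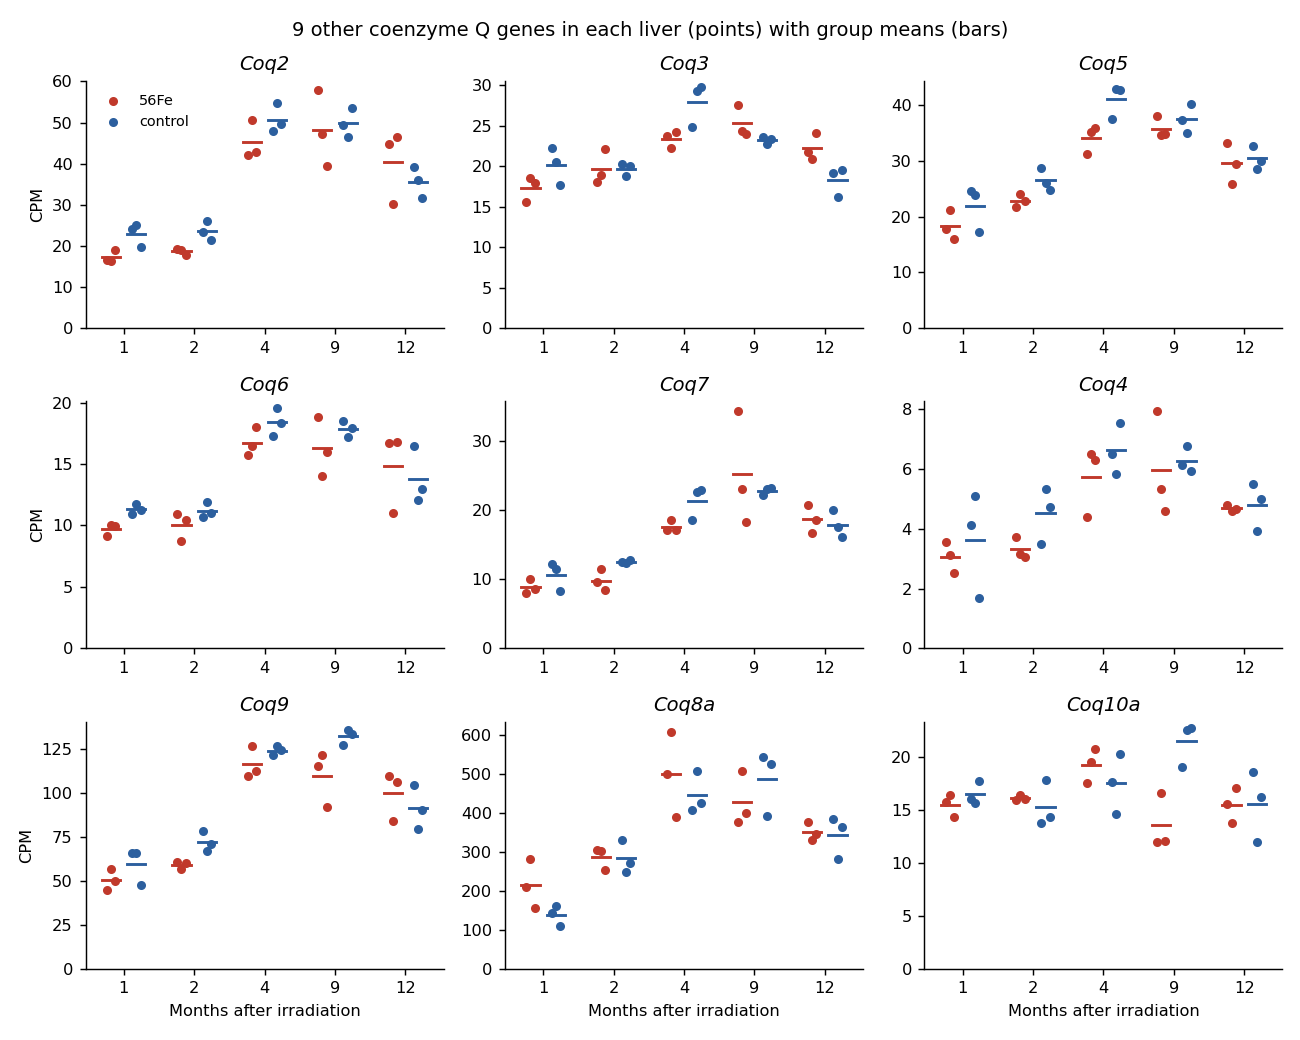
Levels (CPM) of the 9 coenzyme Q genes other than Coq10b in each liver by month, 56Fe livers left of control livers; bars are group means. Coq2 is apart at months 1 and 2 and Coq10a at month 9, and with both arms averaged 8 of these 9, or 7 with upper quartile scaling, are higher at months 4, 9 and 12 than at months 1 and 2.

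By sign alone, 8, 6, 7, 7 and 3 of the 9 members were lower in 56Fe livers at months 1, 2, 4, 9 and 12 in turn. Their median log2 differences were -0.24, -0.22, -0.17, -0.08 and 0.06, beside -0.03, -0.02, 0.04, 0.00 and -0.02 for all genes tested. With the log2 CPM of Gm26917 as a covariate the month 4 median became 0.04 and the month 12 median -0.09. Every 56Fe liver was below every control liver for 2, 4, 3, 2 and 0 of the 9 members at these months, and above for 1 (Coq3) at each of months 9 and 12. The share of all genes apart in this way was not computed, so nothing about the members is read from these counts. The members are not independent of each other: within groups, deviations of Coq5 and Coq9 had r = 0.71 and those of Coq2 and Coq7 r = 0.69 over the 30 livers. The r of Coq10b with the other members ran between -0.32 with Coq8a and 0.50 with Coq6. That of Coq10a ran between 0.003 with Coq7 and 0.31 with Coq9. All of these share libraries and depth.

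Most coenzyme Q genes were higher at months 4, 9 and 12 than at months 1 and 2, in both arms averaged. Of the 9 members other than Coq10b, 8 rose and 1 (Coq10a) was not called (edgeR; 7 rose with upper quartile scaling). Of all genes, 34.0% were called higher and 72.4% were called in either direction. Across the 5 times without regard to direction 8 of the 9 were called, all but Coq10a (adjusted p = 0.208), against 70.4% of all genes. Coq10b, whose values chose the set, is described below without a test. The largest rise was that of Coq2, whose lowest, median and highest levels were 30.2, 46.5 and 58.0 CPM in the 18 livers of the later months, against 16.3, 19.5 and 26.1 CPM in the 12 livers of months 1 and 2. The periods did not overlap, and the log2 difference was 1.13 ± 0.07 (adjusted p = 3.13e-14). Coq7 stood at 16.1, 19.3 and 34.5 CPM in later livers, against 7.99, 10.7 and 12.8 CPM in earlier livers. Coq9 stood at 79.3, 114 and 136 CPM in later livers, against 44.9, 60.5 and 78.4 CPM in earlier livers. These 2 genes were also apart between the periods, and rose by 0.97 ± 0.08 (adjusted p = 1.14e-11) and 0.90 ± 0.06 (adjusted p = 5.25e-13) on the log2 scale.

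Coq8a rose by 0.93 ± 0.09 with some overlap, at 283, 396 and 609 CPM in later livers and 109, 251 and 332 CPM in earlier livers (lowest, median and highest). Coq4, Coq5 and Coq6 rose by 0.64 ± 0.12, 0.64 ± 0.06 and 0.62 ± 0.07, and Coq3 by 0.28 ± 0.05 (adjusted p = 4.53e-05). The Coq10b difference was 0.42 ± 0.10, given without a test. Coq10a differed by 0.10 ± 0.07 (adjusted p = 0.226). For Coq10b the later mean was higher in the 56Fe arm only: its lowest, median and highest levels were 12.4, 30.6 and 42.0 CPM in the 9 later and 7.37, 12.6 and 20.1 CPM in the 6 earlier 56Fe livers. In control livers they were 17.6, 29.1 and 37.4 CPM later and 21.4, 35.0 and 54.7 CPM earlier, so the later mean (29.6 CPM) was below the earlier mean (36.5 CPM). The later mean was above the earlier mean for the other 9 members in both arms, and no test was made within an arm. The median of all genes was -0.12 in this contrast and -0.41 with upper quartile scaling, and relative to it Coq2 was 1.24 and Coq10a 0.21 higher under either scaling. Upper quartile scaling called 7 of the 9 members other than Coq10b higher. It no longer called Coq3 (-0.02, adjusted p = 0.745) and called Coq10a lower (-0.20, adjusted p = 0.0186). The Coq10b difference became 0.13.

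With the log2 CPM of Gm26917 as a covariate, 0 of the 9 members other than Coq10b were called between the periods. Of all 19685 genes, 0 were called (edgeR; 1127 at an unadjusted p under 0.05). The differences of Coq10b and Coq4 became -0.49 and -0.14. The share of Gm26917 was 3.04% or more at months 1 and 2 and 2.04% or less later. Month, age and library make-up therefore cannot be told apart. Other genes of coenzyme Q metabolism were also mostly called higher in this contrast. Of 13 genes for dehydrogenases that reduce coenzyme Q, 10 were called higher and 0 lower, of 9 complex III genes 8 were higher and 0 lower, and of 9 mevalonate pathway genes 7 were higher and 1 lower. Among all genes 34.0% were called higher. Pdss1, a subunit of the enzyme that makes the tail, went against the members, with 3.73 ± 0.881 CPM in later livers (SD, n = 18) and 5.96 ± 0.682 CPM in earlier livers (SD, n = 12; log2 -0.69, edgeR adjusted p = 6.02e-07). Its partner Pdss2 rose by 0.31 and Coq8b, the paralogue of Coq8a, by 0.28 (adjusted p = 0.0443).

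Compared per kilobase of annotated exon, the members spanned a wide range of levels. The median over 30 livers was 67.0 CPM per kilobase for Coq8a, 29.8 for Coq9, 14.3 for Coq2, 9.81 for Coq5 and 7.34 for Coq3. It was 6.34 for Coq10a, 5.64 for Coq10b, 4.30 for Coq6, 2.67 for Coq7 and 1.40 for Coq4. Coq8a exceeded Coq9, and Coq9 exceeded Coq2, in 30 of 30 livers, as did Coq6 over Coq7 and Coq7 over Coq4. Between Coq10a and Coq10b the order held in only 18 of 30 livers, and in 4 of the 10 groups every Coq10a value exceeded every Coq10b value, so which paralogue was higher depended on the group. These orders rest on annotated exon length, 2573 bases for Coq10a and 4805 for Coq10b. In CPM the median of Coq10b (27.1) was above that of Coq10a (16.3), and that of Coq7 (17.2) above that of Coq6 (13.5). The tail genes Pdss2 (2.72 CPM per kilobase) and Pdss1 (1.06) and the paralogue Coq8b (1.58) lay at the lower end.

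**Figure D4:**
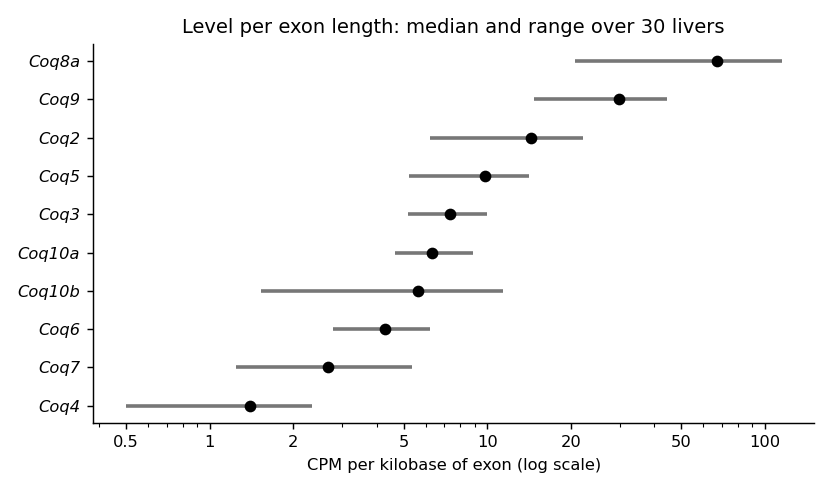
Level of each coenzyme Q gene per kilobase of exon (CPM per kilobase, log axis) over the 30 livers; points are medians and lines run to the lowest and highest liver. Coq8a is highest at 67.0 and Coq4 lowest at 1.40, and Coq10a and Coq10b overlap in the middle.

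Counting may have mixed some members with overlapping genes, because the sources used here do not say whether strand was used. Trub2 on the opposite strand shares 921 exonic bases with Coq4, and Cdc42bpa shares 366 with Coq8a. Both of these partners had counts of their own (median 158 and 1014). For Coq10b the opposite-strand overlap is E330011M16Rik, with a median of 3 counts, and the pseudogene Gm17971 within Coq10b had a median of 16.5 counts.

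Which genes had the profile most like that of Coq10b was asked over 14398 genes, by Pearson r of log2 CPM over the 30 livers, as a description. The highest named gene was Slc20a1, a phosphate transporter, with r = 0.86 over all livers, 0.93 over the 12 livers of months 1 and 2, and 0.76 over the other 18. Such r values include the differences between groups that chose Coq10b. Within groups, as deviations from the group means over the 30 livers, r with Slc20a1 was 0.48. The mean of Slc20a1 was 14.2 CPM in 56Fe livers and 46.1 CPM in control livers at month 1, and 33.2 CPM in 56Fe livers and 27.8 CPM in control livers at month 9, the same order of groups as in Coq10b at both months. Next came Cast, the calpain inhibitor calpastatin (0.79), Nampt, the rate-limiting enzyme of NAD salvage (0.78), Rnaseh2b, a ribonuclease subunit (0.78), Ripk4, a kinase (0.78), and Tmed5, a secretory pathway protein (0.77). Within groups their r was 0.35, 0.52, 0.26, 0.64 and 0.07 in this order. The genes most opposed to Coq10b were Npas2 (r = -0.83), a clock transcription factor, and Eps8l2 (-0.82), at -0.40 and -0.57 within groups.

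**Figure D5:**
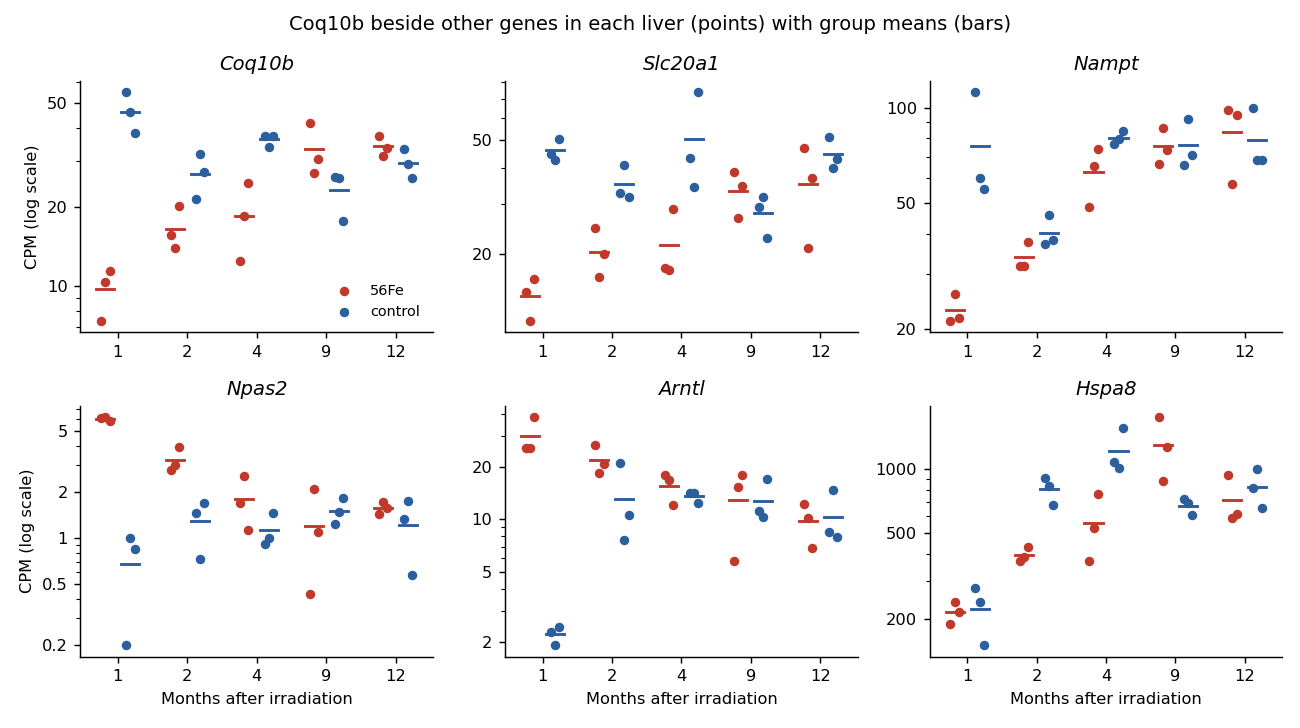
Levels (CPM, log axis) of Coq10b, Slc20a1, Nampt, Npas2, Arntl and Hspa8 in each liver by month, 56Fe livers left of control livers; bars are group means. Slc20a1 is lower in 56Fe livers at months 1, 2 and 4 as Coq10b is, while Npas2 is the reverse at month 1 and Hspa8 is lower in 56Fe livers at months 2 and 4 and higher at month 9.

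Genes of the circadian clock differed strongly between the arms in the same livers at month 1. Of 16 clock genes, 3 were called higher and 7 lower in 56Fe livers at month 1 and 0 higher and 4 lower at month 2, and none was called at months 4, 9 or 12. Over all genes 4.6%, 4.37%, 3.6%, 1.66% and 0.0% were called at the 5 times in turn. Arntl, the core activator, had 29.9 ± 7.41 CPM in 56Fe livers and 2.21 ± 0.273 CPM in control livers at month 1 (SD, n = 3; log2 3.75, edgeR adjusted p = 1.56e-05). Dbp, a clock output, had 12.2 ± 5.79 CPM in 56Fe livers and 127 ± 9.05 CPM in control livers (log2 -3.37, adjusted p = 0.00486). Coq10b had r = -0.90 with Arntl and 0.85 with Dbp over the 12 livers of months 1 and 2, but -0.52 and -0.18 over the other 18. These values include the differences between groups. As deviations from the group means over the 30 livers, r was -0.47 with Arntl and 0.04 with Dbp. Among the 16 clock genes this r was lowest for Arntl and highest for Nr1d2, at 0.56. Nr1d2 had r = 0.96 with Coq10b over months 1 and 2 and 0.41 over the other 18 livers. The hour of collection is not given in the sources used here, and its part in the Coq10b difference was not tested.

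Heat shock genes differed between the arms mainly after month 1. Of 18 such genes, none was called at month 1 and 1 was lower in 56Fe livers at month 2, while there were 7 lower at month 4 and 6 higher at month 9. At these months 4.6%, 4.37%, 3.6% and 1.66% of all genes were called in either direction. Hspa8, the constitutive cytosolic chaperone, averaged 557 CPM in 56Fe livers and 1214 CPM in control livers at month 4 (log2 -1.12, adjusted p = 0.0163), and 1295 CPM in 56Fe livers and 672.5 CPM in control livers at month 9 (0.95, adjusted p = 0.0545). Its r with Coq10b was 0.16 over months 1 and 2 and 0.80 over months 4, 9 and 12, and 0.70 within groups over the 30 livers. Hspd1 and Hspe1, the mitochondrial chaperonin genes, have annotated spans that lie 5133 and 15430 bases beyond the end of Coq10b. Neither was called between the arms at any month, though the difference varied between months for Hspd1 (edgeR, adjusted p = 0.0425; Hspe1, 0.0567). Averaged over months 1 and 2, Hspd1 fell by 0.44 in 56Fe livers on the log2 scale (adjusted p = 0.0293). These genes share a start region, and 1 of the 2 Hspd1 windows and the Hspe1 window, nearly the same stretch, held the heat shock elements GAANNTTC and TTCNNGAA, which 7.86% and 8.52% of all windows hold. The part of the heat shock genes in the Coq10b values was not tested.

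Of 11 genes that respond to fasting and glucocorticoid, 2 were called higher at month 1 (Zbtb16 and Tsc22d3) and 3 lower at month 2 (Fkbp5, Tsc22d3 and Pck1) in 56Fe livers. The share of all genes called was 4.6% at month 1 and 4.37% at month 2. Fkbp5, a chaperone partner of the glucocorticoid receptor, averaged 22.1 CPM in 56Fe livers and 90.7 CPM in control livers at month 2 (log2 -2.04, adjusted p = 0.0113). These genes did not share one relation to Coq10b: over all 30 livers its r was 0.45 with Fkbp5, 0.14 with Pck1, 0.03 with Tsc22d3 and -0.36 with Zbtb16. Within groups it was 0.41, -0.06, -0.24 and 0.21 in this order. Per1, from the clock list, averaged 17.9 CPM in 56Fe livers and 49.7 CPM in control livers at month 2 (-1.47, adjusted p = 0.0133) and had r = 0.42 with Coq10b, and 0.18 within groups.

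In the pathway around the members, the genes called at months 1, 2 and 4 were all lower in 56Fe livers. Of 11 other genes for coenzyme Q synthesis and its upkeep, 9 were tested, and 3 were called at month 1 against 4.6% of all genes. At month 1, Fdx1, an electron donor that serves hydroxylases, Stard7, a lipid transfer protein, and Yme1l1, an inner membrane protease, fell in 56Fe livers by 0.93, 0.52 and 0.44 on the log2 scale (adjusted p = 0.0353, 0.0243 and 0.0405). At month 2 Pptc7, a mitochondrial phosphatase, fell by 1.08 (0.00978), and at month 4 Yme1l1 and the protease Oma1 fell by 0.47 and 0.44 (0.0354 and 0.0398). Pdss1, Pdss2 and Coq8b were not called at any month.

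On the side that uses coenzyme Q, Aifm2, which reduces it at membranes outside mitochondria and limits lipid peroxidation, averaged 16.2 CPM in 56Fe livers and 29.6 CPM in control livers at month 1. It fell by 0.87 on the log2 scale (edgeR, adjusted p = 0.00114). Sqor, the sulfide-oxidising dehydrogenase, fell by 0.64 at month 1 (0.0125) and Prodh, the proline dehydrogenase, by 0.70 at month 2 (0.0378). Of the 13 dehydrogenase genes, 2 were called lower at month 1 (4.6% of all genes), 1 at month 2 (4.37%) and 5 in the mean over the 5 times (5.26%), and 0 were called higher. In complex III, which takes electrons from coenzyme Q, the core subunits Uqcrc2 and Uqcrc1 fell by 0.73 and 0.53 at month 1 (0.0132 and 0.048), and 0 of the 9 genes were called at any later single month. Averaged over months 1 and 2, 7 of the 13 dehydrogenase genes, 5 of the 9 complex III genes and 3 of the 9 other synthesis genes were called lower, where 10.4% of all genes were called in either direction. With the Gm26917 covariate, edgeR called 65 of all genes in that average, against 2052 without it. At months 1, 2, 4 and 9 it called 113, 60, 1 and 243, against 906, 860, 708 and 326. Calls of the pathway, clock, heat shock and fasting genes with this covariate are not reported here. Upper quartile factors called 411 genes higher and 307 lower at month 1, against 294 and 612 as reported.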

How the data were processed

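The deposited values are raw counts of reads per gene, made by the authors with STAR 2.5.3a on GRCm38, per the submitters' processing notes. Gencode M14 genes were used, per the series' design text, and the strand setting is not given in the sources used here. The members and all gene lists were chosen with earlier results of these data known. The 30 libraries of 10 groups were fitted together in edgeR 4.0.16 (R 4.3.3, TMM factors, filterByExpr with a minimum of 10 counts and a total of 15, robust quasi-likelihood test), giving 19685 tested genes. Adjusted p-values are Benjamini-Hochberg over all of them, and a call is an adjusted p under 0.05. The labels name biological replicates, so p-values measure the spread between livers. Alternatives were RLE and upper quartile factors, no filter, 1 CPM in 3 libraries, DESeq2 1.42.0, limma 3.58.1 (voom with sample weights), a Gm26917 covariate (its log2 CPM), a replicate block, single months and each library left out. Tables and figures used Python 3.11.15, pandas 2.3.3, numpy 2.4.6 and matplotlib 3.10.9. Annotation was Gencode M21. In simulated counts for 19685 genes, differences at month 1 were planted in a subset drawn from genes with a mean of at least 1 CPM. The fit recovered 57% of the 2-fold and 92% of the 4-fold differences and called 7 genes without one. Recovery at the levels of the members was not computed. Named genes are the 10 members, called genes of each list (at most 6), fixed partners, and the 6 highest and 3 lowest correlations with Coq10b, leaving out predicted genes; some items are not reported here. The totals of 7995248 to 20215995 counts set the depth.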

Additional observations from a re-analysis of the deposited data

Results flagged for a closer look

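The Coq10b difference between 56Fe and control livers had opposite signs in different months, with every 56Fe liver on one side of every control liver at months 1, 2, 4 and 9. It was higher by 2.77 on the log2 scale at month 9 than at month 1, by 1.22 than at month 2 and by 1.48 than at month 4. Coq3 likewise had all 56Fe livers below the control livers at month 4 and above them at months 9 and 12, and its difference was higher by 0.38 at month 9 and by 0.54 at month 12 than at month 4. These pairwise differences between months were not tested. Over the 5 times together, edgeR did not call a varying 56Fe difference for Coq3 (adjusted p = 0.0819), and DESeq2 called it. Groups of 3 livers are too small for single livers to be singled out.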

How the results depend on the processing

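At month 1 the count of members called other than Coq10b, 0 as reported, was 1 (Coq8a) with upper quartile factors, no filter, the 1 CPM filter, DESeq2 and the replicate block, 2 (Coq2 and Coq8a) with limma voom, and 0 to 2 without single livers. Over all genes 906 were called at that month as reported, 718 with upper quartile factors, 2047 with limma voom and 1224 with the block. No filter called 640 of 48190, the 1 CPM filter 772 of 17584 and DESeq2 1217 of 12052. At month 9 it was 0 rather than 1 without a filter and with 6 libraries alone, and 0 to 1 without single livers. Members called for a difference between months were 1 with RLE factors and the 1 CPM filter (Coq3), 1 with upper quartile factors, voom and the replicate block (Coq10a), 2 with DESeq2, and 0 to 1 without single livers. Over all genes 2161 were called as reported, 2385 with RLE factors, 2429 with upper quartile factors, 4475 with voom and 2815 with the block. The 1 CPM filter called 2598 of 17584 and DESeq2 3857 of 14719. For the mean difference, 0 of 9 as reported became 3 with voom (Coq2, Coq5 and Coq9), 1 with the replicate block (Coq5), 1 with months 1 and 2 only (Coq2), and 0 to 2 without single livers. Over all genes 1035 were called as reported, 2732 with voom, 1607 with the block and 2052 with months 1 and 2 only. With the Gm26917 covariate, members called over time became 1 (Coq8a; 2359 of all genes, against 13866 without it) and between the periods 0 (0 of all genes). Without any single liver, the members called between the periods other than Coq10b all stayed called. The difference between the periods turned to -0.49 in Coq10b and -0.14 in Coq4 with that covariate, and to -0.018 in Coq3 with upper quartile factors. The cause of these changes was not tested. Of 2700 values for single members under alternatives, 2573 kept direction and call, and 79 changed sign while uncalled. Same-numbered livers of both arms had correlations of -0.384 to 0.346, above 0.1 in 6 of 15 pairs, and 9 correlated best with their own number. Pairing by replicate number, or a batch shared by such livers, was therefore neither shown nor excluded. No paired fit was run for the time contrasts, since the block, a replicate number within a month, absorbs the month. With 3 livers a group, 2-fold differences at month 1 were recovered in 57% of cases in simulation, so smaller ones may be missed.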
